A study of Mus musculus with 4 samples.

Results

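Cdkn2a+ Epcam- cells are barcodes of mouse mammary tumours that carried transcripts of Cdkn2a, a tumour suppressor locus, but none of Epcam, an epithelial adhesion molecule. They were selected on measured UMI counts of 6 genes, in both tumours, as barcodes with 500 or more genes, at most 10% mitochondrial (mt-) UMIs, 2 or more Cdkn2a UMIs, 0 Epcam UMIs, at most 2 UMIs over Krt8 and Krt18, 0 Ptprc UMIs and at most 2 Tyrobp UMIs. A UMI is 1 counted transcript molecule. The rule found 155 of 4405 kept tumour barcodes: 132 of 1765 in tumour 2 (7.48%, exact 95% interval 6.29 to 8.81) and 23 of 2640 in tumour 1 (0.871%, 0.553 to 1.30). They were set against Epcam+ cells of the same tumour, with 1 or more Epcam UMIs, 3 or more Krt8 plus Krt18 UMIs and 0 Ptprc UMIs, which numbered 385 in tumour 2 and 345 in tumour 1.

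The series followed luminal mammary cells that lost 2 tumour suppressors. All 4 libraries came from female Trp53L/L;Brca1L/L;R26Y mice of mixed genetic background whose milk ducts had received Ad-K8-Cre, an adenovirus that expresses Cre under the keratin 8 promoter, so that floxed Trp53 and Brca1 were deleted and a Rosa26 YFP reporter was switched on in luminal cells. The 2 tumour libraries held live DAPI- cells of 1 tumour mass each, with no selection for YFP, so stromal and immune cells of the host were present. YFP+ cells taken about 2 weeks after injection, and YFP+ cells together with CD45+ leukocytes taken about 5 months after it, made the other 2 libraries. The labels name no control without Cre and do not say whether both tumours came from the same mouse.

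Cdkn2a encodes a cyclin-dependent kinase inhibitor and, in another reading frame, the ARF protein, which stabilises Trp53. Reads near the 3′ end of transcripts do not separate these products. Epithelial tumour cells can lose cell junctions and keratins and take on filaments and matrix genes of mesenchymal cells, a change known as epithelial-mesenchymal transition, and mammary carcinomas can also express genes of neural crest and cartilage, Sox10 among them. Sox10 is a transcription factor of neural crest, Schwann cells and mammary progenitors. Mgp encodes matrix Gla protein, which is found in cartilage and vessel walls. Scrg1 is a small secreted protein found in cartilage and nervous tissue, and Sparcl1 is a secreted relative of the matrix protein osteonectin.

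The markers that name the cells were common in tumour 2 and rarer in the mixed barcodes of tumour 1. In tumour 2, 112 of the 132 cells fell in 1 of 14 Leiden clusters, cluster 1, with 15 in cluster 3 and 5 in cluster 6. In tumour 1 the 23 barcodes were spread over 7 of 17 clusters, with 7 in cluster 9, 6 in cluster 14, 4 in cluster 6, 2 each in clusters 15 and 16, and 1 each in clusters 4 and 12. At least 1 UMI of each of Mgp, Sox10, Scrg1 and Sparcl1 was present in 46 of the 132 cells of tumour 2 (34.8%, 26.8 to 43.6) and in 0 of the 23 of tumour 1, whose exact upper bound was 14.8%. Genes of fibroblasts (3 or more UMIs over Dcn, Lum and Pdgfra), collagens I and III (10 or more UMIs) or endothelium (3 or more over Pecam1 and Cdh5) were carried by 3 of 132 cells in tumour 2 and by 18 of 23 in tumour 1. The rule and the markers were chosen with earlier results of these data known, so the marker shares are a description and no test of the name. Results are given per tumour because of the mixture, and the barcodes of tumour 1 are called by the rule only. Intervals cover counting error only.

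**Figure D1:**
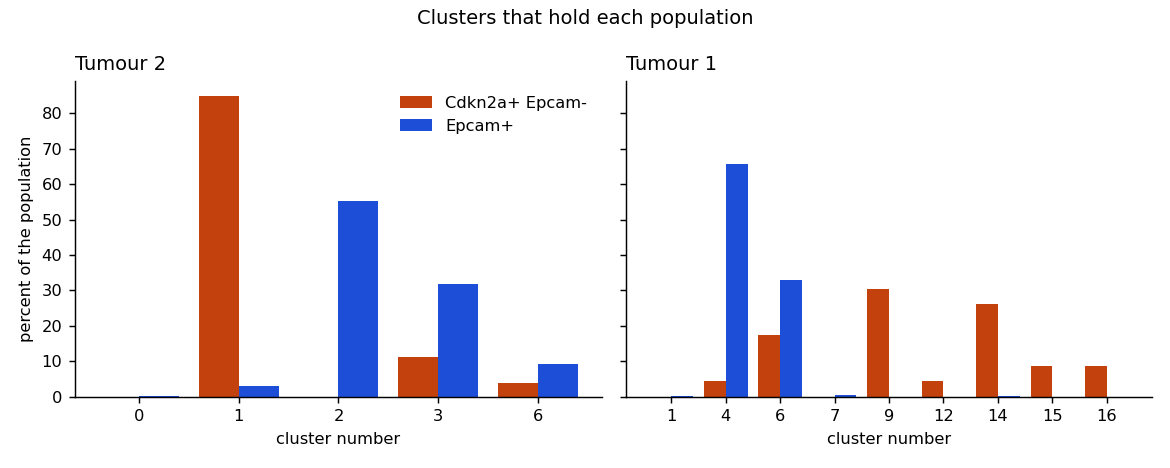
Percent of the Cdkn2a+ Epcam- cells (orange, 132 in tumour 2 and 23 in tumour 1) and of the Epcam+ cells (blue, 385 and 345) in each Leiden cluster of their tumour; clusters with neither are not drawn. In tumour 2 cluster 1 held 112 of the 132 cells and 12 of the 385 Epcam+ cells, while in tumour 1 the 23 barcodes lay in 7 clusters.

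Leukocyte and fibroblast-gene barcodes were shallower than the Cdkn2a+ Epcam- and Epcam+ cells. The median barcode of the Cdkn2a+ Epcam- cells held 9383.5 UMIs in tumour 2 and 13549 in tumour 1, that of Epcam+ cells 8358 and 14871, that of leukocytes 5570 and 6667.5, and that of fibroblast-gene barcodes 5112.5 and 8969. No Cdkn2a+ Epcam- barcode was shared with another library. The threshold on Cdkn2a cut through the cells: 23 of the 132 and 10 of the 23 held exactly 2 UMIs, and a further 41 barcodes in tumour 2 and 11 in tumour 1 met all other conditions with 1 UMI. Cluster 1 of tumour 2 held 258 barcodes, and of the 146 outside the rule 69 missed it on Cdkn2a alone and 18 on Epcam alone.

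The genes that chose or named the cells are given as levels, with no test, in CPM, the UMIs of a gene summed over a population and scaled to a total of 1e+06 UMIs. In tumour 2 Cdkn2a was at 775 (95% interval 728 to 824) CPM in Cdkn2a+ Epcam- cells and 569 (95% interval 545 to 594) CPM in Epcam+ cells. In tumour 1 it was at 321 CPM in Cdkn2a+ Epcam- barcodes and 443 CPM in Epcam+ cells. Leukocytes, which measure the free RNA, had 28.6 CPM in tumour 2 and 17.1 CPM in tumour 1. Mgp was at 5075 CPM in Cdkn2a+ Epcam- cells of tumour 2 and 981 CPM in its Epcam+ cells. In tumour 1 Mgp was at 1601 CPM in the barcodes and 229 CPM in Epcam+ cells, but 1 barcode held 60.3% of those UMIs and the fibroblast-gene barcodes had 1588 CPM. Fibroblast-gene barcodes are those with 3 or more UMIs over Dcn, Lum and Pdgfra, at most 1 of Cdkn2a, at most 2 over Krt8 and Krt18 and none of Epcam or Ptprc (22 in tumour 2, 91 in tumour 1).

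Sox10 and Scrg1 were higher in Cdkn2a+ Epcam- than in Epcam+ cells of tumour 2 and lower in tumour 1. Sox10 was at 146 (95% interval 126 to 168) CPM in Cdkn2a+ Epcam- cells and 80.8 (95% interval 71.8 to 90.6) CPM in Epcam+ cells of tumour 2. In tumour 1 Sox10 was lower in the barcodes, at 35.3 (95% interval 17.6 to 63.1) CPM, than in Epcam+ cells, at 76.5 (95% interval 69.5 to 83.9) CPM. Scrg1 was at 186 CPM in Cdkn2a+ Epcam- and 32.8 CPM in Epcam+ cells of tumour 2, and at 12.8 CPM in Cdkn2a+ Epcam- and 34.6 CPM in Epcam+ cells of tumour 1. Sparcl1 was at 669 CPM in Cdkn2a+ Epcam- and 67.6 CPM in Epcam+ cells of tumour 2. The 263 CPM of Sparcl1 in tumour 1 came from 8 of 23 barcodes, among them the pair in cluster 16 with endothelial genes, whose level was 1220.3 CPM.

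The share of cells with a UMI followed the same order in tumour 2. With each cell thinned to 2000 UMIs, Sox10 was found in 24.2% of Cdkn2a+ Epcam- cells of tumour 2 (59.8% unthinned), 12.99% of its Epcam+ cells (38.7% unthinned) and 1.66% of its leukocytes (3.33% unthinned). Mgp was found in 91.7% of Cdkn2a+ Epcam- cells after thinning (96.2% unthinned), 33.5% of Epcam+ cells (57.1%) and 14.8% of leukocytes (30.6%) of tumour 2. Thinning left out no cell of these tumour populations. Epcam+ cells therefore carried the named markers too, at lower levels and in fewer cells.

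**Figure D2:**
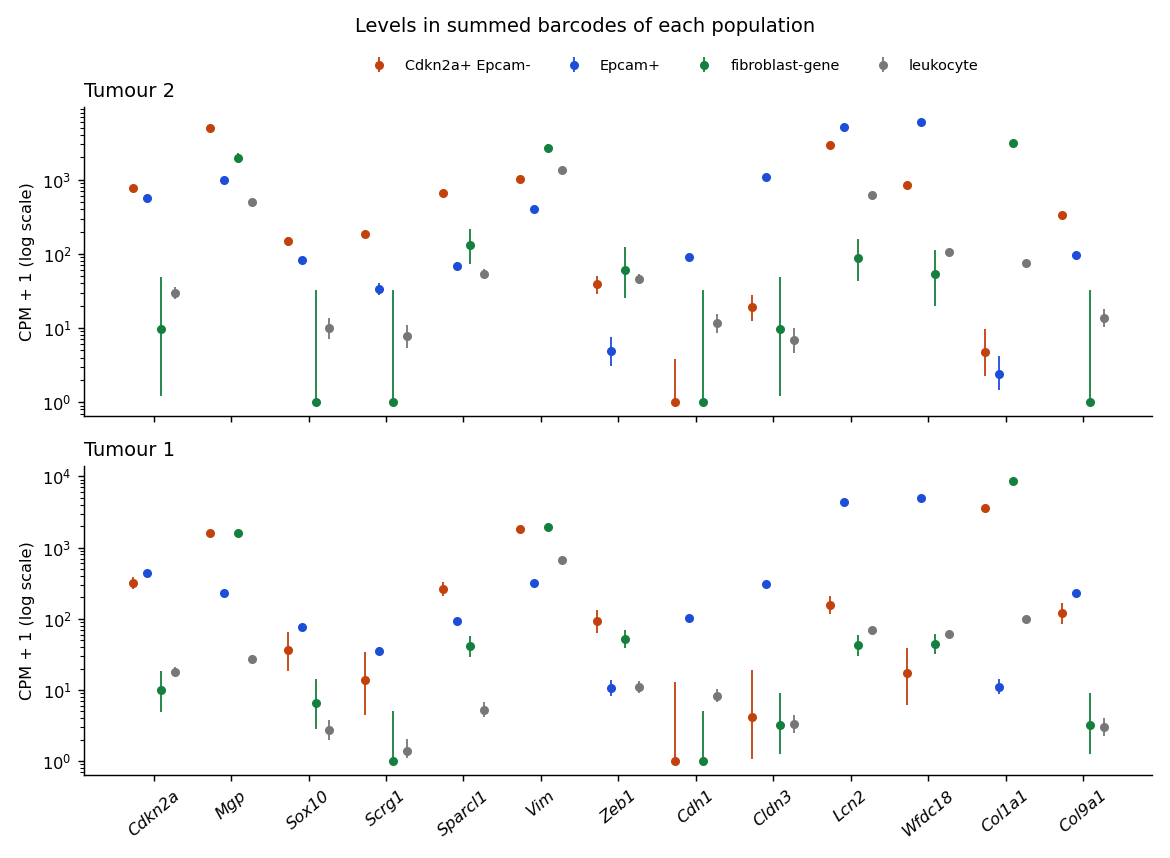
Levels of rule genes, markers and lineage genes (CPM + 1, log axis) in tumour 2 (upper panel) and tumour 1 (lower panel), summed over Cdkn2a+ Epcam- (orange), Epcam+ (blue), fibroblast-gene (green) and leukocyte (grey) barcodes; bars are exact 95% Poisson intervals, counting error only. Sox10, Scrg1 and Col9a1 lay above Epcam+ cells in tumour 2 and below them in tumour 1, whereas Cdh1 was at 0 in the Cdkn2a+ Epcam- cells of both.

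Over both tumours, 212 of 10038 genes tested rose (2.11%) and 170 fell (1.69%) in Cdkn2a+ Epcam- relative to Epcam+ cells. The test was edgeR's quasi-likelihood test on 4 sums of UMIs, 2 populations in each of 2 tumours, with the tumour as a block and Benjamini-Hochberg adjusted p under 0.05. Every log2 change and adjusted p of a gene below comes from it, n = 2 tumours. The mixed barcodes of tumour 1 enter as the second sum of the rule, so a pooled change does not describe a single cell type. The fit has 1 residual degree of freedom; without the tumour term 0 genes passed, with 721 at an unadjusted p under 0.05. A second fit left out barcodes of either population with 2 or more UMIs over Pecam1, Cdh5, Rgs5, Dcn, Lum and Pdgfra. It kept 124 Cdkn2a+ Epcam- cells of tumour 2 and 5 barcodes of tumour 1. In it 38 genes rose (0.391% of 9711) and 72 fell (0.741%). Below, barcodes of other cell types left out refers to this filter. It used no collagen, plasma cell or T cell gene, so barcodes of those kinds could remain in tumour 1. There the 2 barcodes of cluster 15 and the 1 of cluster 12, clusters led by plasma cell and T cell genes, had 0 UMIs of Pecam1, Cdh5 and Dcn. The 1 barcode of cluster 4 held 2 Pecam1 UMIs and was dropped. The 5 kept barcodes of tumour 1 are therefore not a sum of tumour cells alone. It could also drop barcodes of clusters shared with Epcam+ cells: in tumour 1 Dcn was found in all 4 of cluster 6. Because the cells were chosen for low Epcam, Krt8 and Krt18, the fall of other epithelial genes is not independent of the choice. In bulk sums, fewer cells with a gene and less RNA per cell cannot be told apart.

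Genes of epithelial junctions fell together. Of 31 genes of junctions, keratins and epithelial regulators, 30 were tested, 0 rose and 25 fell, where 2.11% and 1.69% of all tested genes did. The median log2 change of the list was -4.64 beside -0.07 over all tested genes. Cdh1, which encodes the adhesion molecule E-cadherin, had 0 UMIs in the Cdkn2a+ Epcam- cells of both tumours, against 89.7 CPM in Epcam+ cells of tumour 2 and 100.1 CPM in those of tumour 1. Set against a floor of 3 counts over the population, it was at least 39.7-fold lower in tumour 2 and at least 10.4-fold lower in tumour 1 (adjusted p = 7.09e-06). The tight junction gene Cldn4 was at 8.29 CPM in Cdkn2a+ Epcam- and 939 CPM in Epcam+ cells of tumour 2, and at 3.21 CPM in Cdkn2a+ Epcam- and 141 CPM in Epcam+ cells of tumour 1 (log2 change -6.67 ± 0.58 (SE), adjusted p = 1.22e-06). Cldn3, another claudin, was at 18.1 CPM in Cdkn2a+ Epcam- and 1075 CPM in Epcam+ cells of tumour 2, and at 3.21 CPM in Cdkn2a+ Epcam- and 303 CPM in Epcam+ cells of tumour 1 (adjusted p = 1.22e-06). All 3 were lower in Cdkn2a+ Epcam- cells of both tumours. With barcodes of other cell types left out, 19 of the list fell, where 0.741% of all tested genes did.

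The named genes were the 15 with the largest falls among called genes at 20 CPM or more in Epcam+ cells of both tumours. Crb3, an apical polarity protein, had 0 UMIs in Cdkn2a+ Epcam- cells, against 56.01 CPM in Epcam+ cells of tumour 2 and 28.3 CPM in tumour 1 (adjusted p = 0.000113). Elf5, a transcription factor of luminal progenitors, had 0 UMIs, against 33.9 and 48.3 CPM in Epcam+ cells of tumours 2 and 1 (adjusted p = 0.000156). The adaptor subunit Ap1m2, the apical transport protein Mal2, the cytokine subunit Il23a and Cwh43 also had 0 UMIs in both tumours. Lypd3, Serpinb5 (maspin), the junction genes Mpzl2 and Cgn, the RNA-binding protein Rbm47 and the membrane protease Prss8 completed these 15 beside Cdh1, Cldn3 and Cldn4. Of the 15, all fell by at least 5.22 on the log2 scale, 12 had 0 UMIs in tumour 1 and 8 in tumour 2; at 0 UMIs the fitted size depends on the prior count. DESeq2 called 8 of the 15.

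Promoters of 3 junction and polarity genes that fell are printed because they hold a short motif, and they were chosen for it. The motif is the E-box CAGGTG, read as CACCTG on the other strand. The sequences run 5′ to 3′, 250 bases before to 50 after the start of the gene, from RefSeq on GRCm38.p6, and capitals mark the motif. Crb3 lies on the plus strand (chr17:57061951-57062250), Cldn4 on the minus strand (chr5:134946885-134947184) and Cldn3 on the plus strand (chr5:134985964-134986263).
Crb3: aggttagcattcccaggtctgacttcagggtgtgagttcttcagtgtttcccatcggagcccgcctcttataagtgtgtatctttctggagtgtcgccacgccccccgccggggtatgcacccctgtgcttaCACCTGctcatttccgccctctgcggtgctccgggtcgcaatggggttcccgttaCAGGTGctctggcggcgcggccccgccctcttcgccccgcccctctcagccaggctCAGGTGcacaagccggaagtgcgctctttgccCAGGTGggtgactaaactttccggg
Cldn4: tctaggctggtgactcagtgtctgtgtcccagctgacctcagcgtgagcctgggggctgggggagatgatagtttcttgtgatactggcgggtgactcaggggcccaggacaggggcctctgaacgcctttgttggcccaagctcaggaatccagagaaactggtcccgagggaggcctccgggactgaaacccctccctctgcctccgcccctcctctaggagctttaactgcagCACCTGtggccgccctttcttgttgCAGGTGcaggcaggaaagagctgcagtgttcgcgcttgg
Cldn3: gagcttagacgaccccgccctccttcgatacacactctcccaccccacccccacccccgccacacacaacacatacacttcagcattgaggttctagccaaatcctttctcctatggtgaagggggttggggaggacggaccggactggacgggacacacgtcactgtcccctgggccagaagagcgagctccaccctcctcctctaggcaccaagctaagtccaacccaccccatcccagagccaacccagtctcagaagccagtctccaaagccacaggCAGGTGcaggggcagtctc
Crb3 held 4 matches, Cldn4 2 and Cldn3 1. Of the 31 junction genes, 18 had a promoter in the table and 15 of those held the motif (83.3%), beside 6098 of 27025 genes with a promoter (22.6%), 5 of 14 luminal progenitor and milk genes (35.7%) and 2 of 30 collagen and matrix genes (6.67%). A match is a description of the letters; no binding was measured, and a link between the motif and the falls was not tested.

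Luminal progenitor and milk genes fell less evenly. Of 20 genes, 15 were tested, 0 rose and 6 fell (Wfdc18, Plet1, Lcn2, Cd14, Csn3 and Aldh1a3), where 2.11% and 1.69% of all tested genes did. The median log2 change of the list was -2.29 beside -0.07 over all tested genes. Wfdc18, a secreted protease inhibitor of the gland, was at 863 CPM in Cdkn2a+ Epcam- and 6045 CPM in Epcam+ cells of tumour 2, and at 16.04 CPM in Cdkn2a+ Epcam- and 4958 CPM in Epcam+ cells of tumour 1 (log2 change -5.00 ± 0.82 (SE), adjusted p = 0.000663). Lcn2, which encodes an iron-siderophore carrier, was at 2939 CPM in Cdkn2a+ Epcam- and 5148 CPM in Epcam+ cells of tumour 2, and at 157 CPM in Cdkn2a+ Epcam- and 4433 CPM in Epcam+ cells of tumour 1 (adjusted p = 0.0206). Csn3, kappa-casein, was at 1682 CPM in Cdkn2a+ Epcam- and 3233 CPM in Epcam+ cells of tumour 2, and at 89.8 CPM in Cdkn2a+ Epcam- and 1427 CPM in Epcam+ cells of tumour 1 (adjusted p = 0.0127). Cells of tumour 2 without Epcam thus still held Lcn2 in 95.5% and Csn3 in 70.5% of barcodes, and thinned to 2000 UMIs the shares were 90.2% and 51.5%, against 26.5% and 10.3% of leukocytes (41.9% and 24.1% unthinned).

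Lalba, the milk protein alpha-lactalbumin, was higher in Cdkn2a+ Epcam- cells of tumour 2. It was at 129 (95% interval 110.3 to 149.7) CPM in Cdkn2a+ Epcam- cells, in 51 of 132 of them, against 27.04 (95% interval 21.95 to 32.95) CPM in Epcam+ cells and 4.21 CPM in leukocytes. It was at 3.21 CPM in Cdkn2a+ Epcam- and 15.6 CPM in Epcam+ cells of tumour 1, and over both tumours it did not pass the test (adjusted p = 0.684). Epcam+ cells had 1.93 CPM of Lalba at 2 weeks and 1586 CPM at 5 months.

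Basal and hormone-sensing genes gave no common direction. Of 20 basal and myoepithelial genes 11 were tested, 2 rose (Tagln and Acta2) and 3 fell, Krt14 and Itgb4 among them, where 2.11% and 1.69% of all tested genes did. With barcodes of other cell types left out 2 rose and 0 fell, where 0.391% and 0.741% of all tested genes did. DESeq2 called 0 higher and 1 lower. Krt5, a basal keratin, had 0 UMIs in every tumour population. Krt14 was at 5.28 CPM in Cdkn2a+ Epcam- and 20.7 CPM in Epcam+ cells of tumour 2, and at 0 CPM in Cdkn2a+ Epcam- and 184 CPM in Epcam+ cells of tumour 1 (adjusted p = 0.00504), and Trp63, the basal transcription factor, at 4.52 CPM in Cdkn2a+ Epcam- and 1.38 CPM in Epcam+ cells of tumour 2, and at 0 CPM in Cdkn2a+ Epcam- and 0.348 CPM in Epcam+ cells of tumour 1. Acta2, smooth muscle actin, was at 35.4 CPM in Cdkn2a+ Epcam- and 15.7 CPM in Epcam+ cells of tumour 2, and at 577 CPM in Cdkn2a+ Epcam- and 8.51 CPM in Epcam+ cells of tumour 1 (adjusted p = 0.0124). In tumour 2, 1 Cdkn2a+ Epcam- barcode held 70.2% of its UMIs. Of 11 hormone-sensing genes 7 were tested, with Tbx3 higher and the prolactin receptor Prlr lower, where 2.11% and 1.69% of all tested genes were. Prlr was at 3.77 CPM in Cdkn2a+ Epcam- and 24.00 CPM in Epcam+ cells of tumour 2, and at 3.21 CPM in Cdkn2a+ Epcam- and 29.5 CPM in Epcam+ cells of tumour 1 (adjusted p = 0.0195). Neither the Tbx3 nor the Prlr call held by DESeq2 or with barcodes of other cell types left out.

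Part of the filament and transcription factor genes of mesenchymal cells rose. Of 21 genes 16 were tested, 6 rose (Prrx1, Sparc, Zeb1, Itga5, Vim and Fn1) and 0 fell, where 2.11% and 1.69% of all tested genes did. The median log2 change of the list was 1.21 beside -0.07 over all tested genes. Vim, the intermediate filament vimentin, was at 1037 CPM in Cdkn2a+ Epcam- and 409 CPM in Epcam+ cells of tumour 2, and at 1831 CPM in Cdkn2a+ Epcam- and 317 CPM in Epcam+ cells of tumour 1 (log2 change 1.86 ± 0.39 (SE), adjusted p = 0.00619). The repressor Zeb1 was at 37.7 CPM in Cdkn2a+ Epcam- and 3.86 CPM in Epcam+ cells of tumour 2, and at 93.02 CPM in Cdkn2a+ Epcam- and 9.73 CPM in Epcam+ cells of tumour 1 (log2 change 3.18 ± 0.50 (SE), adjusted p = 0.000429). Prrx1, a homeobox factor of limb and other mesenchyme, was at 48.99 CPM in Cdkn2a+ Epcam- and 20.97 CPM in Epcam+ cells of tumour 2, and at 160.4 CPM in Cdkn2a+ Epcam- and 1.22 CPM in Epcam+ cells of tumour 1 (adjusted p = 0.0218).

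Leukocytes carried Vim and Zeb1 as well. Leukocytes of tumour 2 had 1341 CPM of Vim and 45.2 CPM of Zeb1, which immune cells express themselves. Prrx1 was at 5.33 CPM in those leukocytes. Snai1, another repressor, was at 71.6 CPM in Cdkn2a+ Epcam- and 24.8 CPM in Epcam+ cells of tumour 2, and at 32.1 CPM in Cdkn2a+ Epcam- and 18.8 CPM in Epcam+ cells of tumour 1 and did not pass (adjusted p = 0.299), while Twist1 had 0 UMIs in Cdkn2a+ Epcam- cells of tumour 2. With barcodes carrying genes of other cell types left out, Prrx1, Sparc and Zeb1 still rose, and Vim did not pass (adjusted p = 0.556).

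Of the neural crest and Schwann genes 1 passed the test. Of 24 genes 15 were tested, 1 rose (S100b) and 0 fell, where 2.11% and 1.69% of all tested genes did. The median log2 change of the list was -0.08. S100b, a calcium-binding protein of glia, was at 11.3 CPM in Cdkn2a+ Epcam- and 0.828 CPM in Epcam+ cells of tumour 2, and at 19.2 CPM in Cdkn2a+ Epcam- and 2.95 CPM in Epcam+ cells of tumour 1 (adjusted p = 0.0373). Its call rests on 15 UMIs in tumour 2 and 6 in tumour 1, 4 of them in 1 barcode, and neither DESeq2 nor the fit with barcodes of other cell types left out called it. Sox9, a relative of Sox10 that specifies cartilage and mammary progenitors, was at 178 CPM in Cdkn2a+ Epcam- and 257 CPM in Epcam+ cells of tumour 2, and at 132 CPM in Cdkn2a+ Epcam- and 192 CPM in Epcam+ cells of tumour 1 (adjusted p = 0.64). Pax3, a neural crest factor, was at 59.5 CPM in Cdkn2a+ Epcam- and 39.2 CPM in Epcam+ cells of tumour 2, and had 0 UMIs in the barcodes and 0.521 CPM in Epcam+ cells of tumour 1. Of 10 Schwann and glial markers, Sox10 and S100b included, 7 had UMIs in Cdkn2a+ Epcam- cells of tumour 2. They summed to 289 CPM in Cdkn2a+ Epcam- cells, where 64 of 132 cells held 3 or more UMIs, and to 139 CPM in Epcam+ cells, where 69 of 385 did. Foxd3 and Gfra3 had 0 UMIs in both populations of both tumours. All melanocyte markers but Mitf had 0 UMIs there.

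Cartilage-like matrix genes were mostly higher in tumour 2 and mixed in tumour 1. Of 22 such genes in the files 11 were tested and 1 rose, where 2.11% of all tested genes did. It was the matrix adaptor Matn2, at 72.4 CPM in Cdkn2a+ Epcam- and 12.7 CPM in Epcam+ cells of tumour 2, and at 12.8 CPM in Cdkn2a+ Epcam- and 2.26 CPM in Epcam+ cells of tumour 1 (log2 change 2.44 ± 0.57 (SE), adjusted p = 0.0142). Within tumour 2, 7 of the 9 listed genes with 20 CPM or more in the higher population were at least 2-fold higher and 1 lower, where 8.22% and 7.45% of 5837 genes were; within tumour 1, 3 of 9 were higher and 2 lower, where 16.6% and 13.2% of 5908 genes were. Each of these compares 1 sum with 1 sum, on log2 of CPM + 1 and with no test. Col9a1, a chain of the cartilage collagen IX, was at 333 (95% interval 303 to 366) CPM in Cdkn2a+ Epcam- cells and 96.01 (95% interval 86.2 to 107) CPM in Epcam+ cells of tumour 2. It was at 119 CPM in Cdkn2a+ Epcam- and 228 CPM in Epcam+ cells of tumour 1, and over both tumours it did not pass (adjusted p = 0.929). Col9a3, another chain, was at 167 CPM in Cdkn2a+ Epcam- and 64.3 CPM in Epcam+ cells of tumour 2, and at 6.41 CPM in Cdkn2a+ Epcam- and 36.5 CPM in Epcam+ cells of tumour 1. Ucma, a secreted protein of cartilage cells, was at 49.7 CPM in Cdkn2a+ Epcam- and 1.10 CPM in Epcam+ cells of tumour 2, and Col2a1, a chain of cartilage collagen II, was at 37.7 CPM in Cdkn2a+ Epcam- and 11.6 CPM in Epcam+ cells of tumour 2.

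Collagens and other matrix genes rose over both tumours, and collagens I and III among them stood on tumour 1. Of 47 genes 38 were tested, 21 rose and 0 fell, where 2.11% and 1.69% of all tested genes did. The median log2 change of the list was 2.27 beside -0.07 over all tested genes. With barcodes of other cell types left out 7 rose and 1 fell, where 0.391% and 0.741% of all tested genes did. Col1a1, a chain of collagen I, was at 3596 CPM in the barcodes of tumour 1 against 10.1 CPM in its Epcam+ cells (log2 change 6.94 ± 1.14 (SE), adjusted p = 0.000648). It was at 3.77 CPM in Cdkn2a+ Epcam- and 1.38 CPM in Epcam+ cells of tumour 2, and Col1a2, also called over both tumours, was at 2.26 CPM in Cdkn2a+ Epcam- and 2.76 CPM in Epcam+ cells of tumour 2. The 22 fibroblast-gene barcodes of tumour 2 had 3107 CPM of Col1a1, and its Cdkn2a+ Epcam- cells were far below them. The fibrillar collagen gene Col5a2 was at 62.6 CPM in Cdkn2a+ Epcam- and 8.001 CPM in Epcam+ cells of tumour 2, and at 789 CPM in Cdkn2a+ Epcam- and 5.73 CPM in Epcam+ cells of tumour 1 (adjusted p = 0.000171), and was found in 48 of 132 cells of tumour 2. The whole list summed to 3583 CPM in Cdkn2a+ Epcam- and 3609 CPM in Epcam+ cells of tumour 2, and to 26250.1 CPM in Cdkn2a+ Epcam- and 3547 CPM in Epcam+ barcodes of tumour 1. These sums include the marker Sparcl1, at 669 and 67.6 CPM in tumour 2, so the rest summed lower in its Cdkn2a+ Epcam- cells. Of 24 listed genes besides Sparcl1 with 20 CPM or more in the higher population of tumour 2, 14 were at least 2-fold higher and 3 lower, Spp1 among the lower. Over all 5837 such genes the shares were 8.22% and 7.45%, with no test.

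Basement membrane collagen and small proteoglycans rose too. Col4a1, a chain of collagen IV, was at 290.2 CPM in Cdkn2a+ Epcam- and 45.2 CPM in Epcam+ cells of tumour 2, and at 305 CPM in Cdkn2a+ Epcam- and 83.6 CPM in Epcam+ cells of tumour 1 (log2 change 2.20 ± 0.40 (SE), adjusted p = 0.00186), and Col4a2 at 207 CPM in Cdkn2a+ Epcam- and 29.8 CPM in Epcam+ cells of tumour 2, and at 173 CPM in Cdkn2a+ Epcam- and 64.8 CPM in Epcam+ cells of tumour 1 (adjusted p = 0.00755). Bgn, the proteoglycan biglycan, was at 225 CPM in Cdkn2a+ Epcam- and 9.93 CPM in Epcam+ cells of tumour 2, and at 1161 CPM in Cdkn2a+ Epcam- and 6.43 CPM in Epcam+ cells of tumour 1 (log2 change 5.93 ± 0.61 (SE), adjusted p = 4.61e-06). Bgn was found in 50 of 132 cells of tumour 2. Dcn, decorin, was at 5.28 CPM in Cdkn2a+ Epcam- and 0.552 CPM in Epcam+ cells of tumour 2, and at 356 CPM in Cdkn2a+ Epcam- and 18.2 CPM in Epcam+ cells of tumour 1 (adjusted p = 0.000103); Pdgfra, a receptor of fibroblasts, at 17.3 CPM in Cdkn2a+ Epcam- and 3.31 CPM in Epcam+ cells of tumour 2, and at 67.4 CPM in Cdkn2a+ Epcam- and 0.869 CPM in Epcam+ cells of tumour 1 (adjusted p = 0.00381); and Pecam1, an endothelial adhesion molecule, at 0.754 CPM in Cdkn2a+ Epcam- and 2.76 CPM in Epcam+ cells of tumour 2, and at 83.4 CPM in Cdkn2a+ Epcam- and 8.34 CPM in Epcam+ cells of tumour 1 (adjusted p = 0.447). In tumour 1 a single barcode held 65.4% of the Pecam1 UMIs. The Dcn value of Cdkn2a+ Epcam- cells of tumour 2 came from 7 UMIs in 3 cells, and Lum, another small proteoglycan, had 0 UMIs there.

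The summed level of endothelial markers was also higher, in tumour 2 mostly through Plvap. The 11 endothelial markers summed to 165 CPM in Cdkn2a+ Epcam- and 51.6 CPM in Epcam+ cells of tumour 2, and to 629 CPM in Cdkn2a+ Epcam- and 43.1 CPM in Epcam+ cells of tumour 1. Plvap alone gave 116 and 23.7 CPM of the sums of tumour 2. Only 2 of the 11 markers reached 20 CPM in its Cdkn2a+ Epcam- cells. In tumour 2, 8 of the 11 had UMIs in Cdkn2a+ Epcam- cells, 34 of 132 cells held 3 or more of these UMIs, and Cldn5, Emcn and Esam were at 0. Leukocytes of tumour 2 had 32.6 CPM of the markers. Pecam1 was lower in Cdkn2a+ Epcam- cells of tumour 2, but other genes known from endothelium rose over both tumours. Eng, a TGF-beta co-receptor, was at 50.5 CPM in Cdkn2a+ Epcam- and 2.48 CPM in Epcam+ cells of tumour 2, and at 83.4 CPM in Cdkn2a+ Epcam- and 1.39 CPM in Epcam+ cells of tumour 1 (adjusted p = 2.44e-05). Plvap, a protein of vessel wall pores, was at 116 CPM in Cdkn2a+ Epcam- and 23.7 CPM in Epcam+ cells of tumour 2, and at 86.6 CPM in Cdkn2a+ Epcam- and 23.3 CPM in Epcam+ cells of tumour 1 (adjusted p = 0.00666). The part of endothelial cells or their RNA in these values was not tested.

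Part of the matrix proteases and their inhibitors rose. Of 25 genes 20 were tested, 9 rose and 0 fell, where 2.11% and 1.69% of all tested genes did. The median log2 change was 1.69 beside -0.07 over all tested genes. With barcodes of other cell types left out, 3 of 18 tested rose, where 0.391% of all tested genes did. Mmp2, which cleaves denatured collagen, was at 91.2 CPM in Cdkn2a+ Epcam- and 5.24 CPM in Epcam+ cells of tumour 2, and at 199 CPM in Cdkn2a+ Epcam- and 4.17 CPM in Epcam+ cells of tumour 1 (log2 change 4.77 ± 0.51 (SE), adjusted p = 6.75e-06). Mmp3, stromelysin, was at 53.5 CPM in Cdkn2a+ Epcam- and 5.24 CPM in Epcam+ cells of tumour 2, and at 218 CPM in Cdkn2a+ Epcam- and 2.09 CPM in Epcam+ cells of tumour 1 (adjusted p = 7.4e-05). Its UMIs in Cdkn2a+ Epcam- cells of tumour 2 came from 4 barcodes. Timp1, an inhibitor of these enzymes, was at 148 CPM in Cdkn2a+ Epcam- and 41.4 CPM in Epcam+ cells of tumour 2, and at 921 CPM in Cdkn2a+ Epcam- and 114 CPM in Epcam+ cells of tumour 1 (adjusted p = 0.001).

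**Figure D3:**
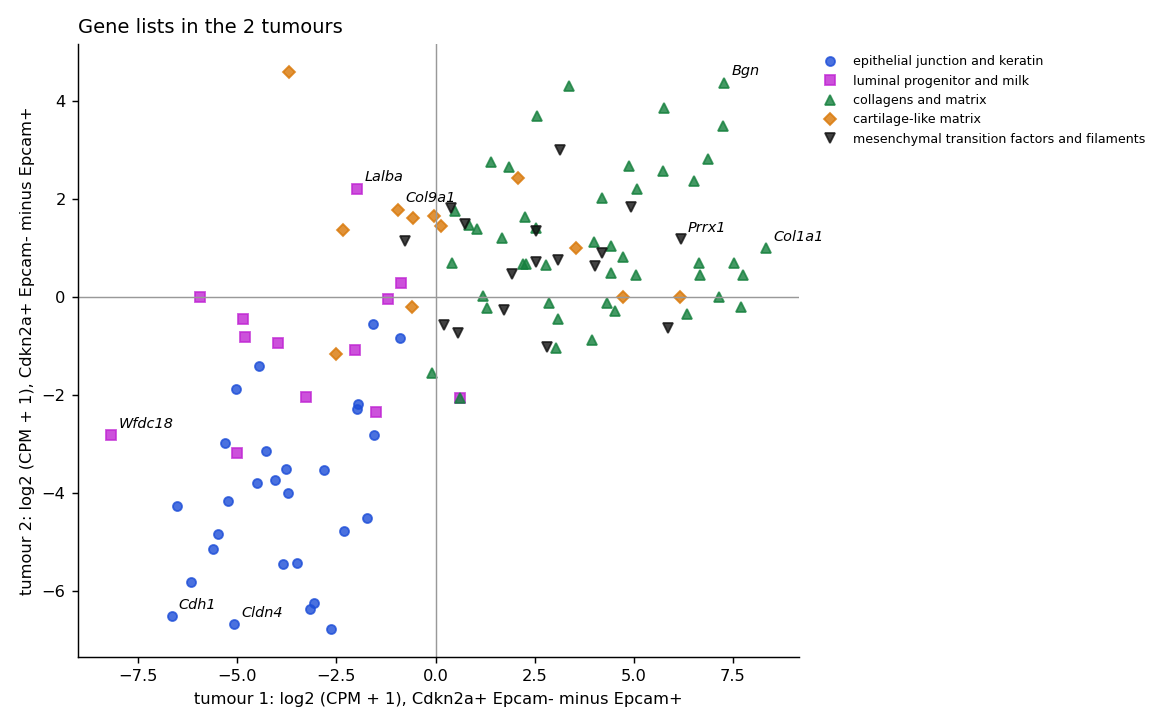
Difference between Cdkn2a+ Epcam- and Epcam+ cells on log2 (CPM + 1) within tumour 1 (x axis) and within tumour 2 (y axis) for members of 5 gene lists with 20 CPM or more in the higher population of either tumour; each point is 1 gene and no test is shown. Junction genes (blue) lay below 0 on both axes, while most collagens and matrix genes (green) lay far to the right and near or above 0 on the y axis, with Col1a1 at 8.34 and 1.00.

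Among called genes higher in both tumours and at 20 CPM or more in the Cdkn2a+ Epcam- cells of both, the 15 with the largest rise were Il6, C1qtnf6, Bgn, Cxcl14, Igfbp3, Cthrc1, Rcn3, Tgfb1i1, Fxyd1, Ramp2, Col5a2, Eng, Mmp3, Mmp2 and Cpxm1, each with a log2 change of 4.51 or more. The fibroblast-gene barcodes stood above the Cdkn2a+ Epcam- cells in 13 of the 15 in tumour 1 and in 14 of the 15 in tumour 2; the part of stromal RNA or stromal cells in these rises was not tested. In tumour 1, 1 barcode held at least 50% of the UMIs of 5 of them, and with barcodes of other cell types left out 9 were tested and 8 rose.

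Among cytokines and chemokines, Il6 was the named gene with the largest log2 change. Il6, an inflammatory cytokine, was at 118 CPM in Cdkn2a+ Epcam- and 1.10 CPM in Epcam+ cells of tumour 2, and at 115 CPM in Cdkn2a+ Epcam- and 1.91 CPM in Epcam+ cells of tumour 1 (log2 change 6.14 ± 0.55 (SE), adjusted p = 1.31e-06). It was found in 7 of 132 cells of tumour 2, 1 of which held 63.5% of the UMIs, and in 3 of 23 barcodes of tumour 1. Cxcl14, a chemokine of epithelium and stroma, was more widespread in tumour 2, in 44 of 132 cells, at 154 CPM in Cdkn2a+ Epcam- and 6.07 CPM in Epcam+ cells of tumour 2, and was at 930.2 CPM in Cdkn2a+ Epcam- and 10.3 CPM in Epcam+ cells of tumour 1 (log2 change 5.56 ± 0.51 (SE), adjusted p = 1.61e-06). Cxcl12, which attracts leukocytes through Cxcr4, was at 133 CPM in Cdkn2a+ Epcam- and 11.6 CPM in Epcam+ cells of tumour 2, and at 112 CPM in Cdkn2a+ Epcam- and 3.997 CPM in Epcam+ cells of tumour 1 (adjusted p = 2.75e-05). Of the 22 listed, 20 were tested, 5 rose (Il6, Cxcl14, Cxcl12, Il11 and Ccl2) and 1 fell (Cxcl16), where 2.11% and 1.69% of all tested genes did. The median log2 change of the list was 0.42. With barcodes of other cell types left out 2 rose and 0 fell, where 0.391% and 0.741% of all tested genes did, and the median was -0.06.

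Growth factor and signalling genes moved in both directions. Of 28 growth factor and receptor genes 23 were tested, 5 rose (Pdgfrb, Igfbp3, Pdgfra, Igf2 and Igfbp4) and 3 fell (Igfbp5, Nrtn and Met), where 2.11% and 1.69% of all tested genes did. With barcodes of other cell types left out 1 rose and 2 fell, where 0.391% and 0.741% of all tested genes did. Igfbp3, a carrier of insulin-like growth factors, was at 147 CPM in Cdkn2a+ Epcam- and 7.45 CPM in Epcam+ cells of tumour 2, and at 500.4 CPM in Cdkn2a+ Epcam- and 4.69 CPM in Epcam+ cells of tumour 1 (adjusted p = 4.61e-06). Its relative Igfbp5 was at 54.3 CPM in Cdkn2a+ Epcam- and 129 CPM in Epcam+ cells of tumour 2, and at 86.6 CPM in Cdkn2a+ Epcam- and 1423 CPM in Epcam+ cells of tumour 1 (adjusted p = 0.00483). Of 36 genes of the Wnt, Notch and TGF-beta pathways 29 were tested, 5 rose (Sfrp2, Dkk3, Inhba, Bmp2 and Id3) and 2 fell, beside the same shares of 2.11% and 1.69%. With barcodes of other cell types left out 0 rose and 1 fell by edgeR, while DESeq2 on all barcodes called 4 and 1. The ligand Wnt7b fell, at 3.01 CPM in Cdkn2a+ Epcam- and 79.7 CPM in Epcam+ cells of tumour 2, and at 6.41 CPM in Cdkn2a+ Epcam- and 82.4 CPM in Epcam+ cells of tumour 1 (adjusted p = 9.79e-05), as did the ligand Wnt5b. Bmp2, a ligand of bone and cartilage formation, was at 76.9 CPM in Cdkn2a+ Epcam- and 17.4 CPM in Epcam+ cells of tumour 2, and at 67.4 CPM in Cdkn2a+ Epcam- and 19.98 CPM in Epcam+ cells of tumour 1 (adjusted p = 0.0171).

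Genes of proliferation, p53 response and antigen presentation gave few calls. Over all tested genes 2.11% rose and 1.69% fell, so few calls were to be had in lists of this size. None of 19 S phase genes or 21 G2 and M phase genes tested passed by edgeR or DESeq2, 0 and 3 of them had an unadjusted edgeR p under 0.05, and their median log2 changes were -0.36 and -0.32. Of 17 cyclins, CDKs and inhibitors tested, 1 rose, Ccnd2 (a D-type cyclin), at 82.9 CPM in Cdkn2a+ Epcam- and 24.00 CPM in Epcam+ cells of tumour 2, and at 83.4 CPM in Cdkn2a+ Epcam- and 1.22 CPM in Epcam+ cells of tumour 1 (adjusted p = 0.00521). Cdkn2b, the neighbour of Cdkn2a, was at 47.5 CPM in Cdkn2a+ Epcam- and 58.2 CPM in Epcam+ cells of tumour 2, and at 35.3 CPM in Cdkn2a+ Epcam- and 29.02 CPM in Epcam+ cells of tumour 1 (adjusted p = 0.982). Among p53 targets Phlda3 rose and Perp fell, and Cdkn1a, at 182 CPM in Cdkn2a+ Epcam- and 124 CPM in Epcam+ cells of tumour 2, and at 205 CPM in Cdkn2a+ Epcam- and 34.2 CPM in Epcam+ cells of tumour 1, did not pass (adjusted p = 0.095). Transcripts of the floxed Trp53 were counted at 56.5 CPM in Cdkn2a+ Epcam- and 53.2 CPM in Epcam+ cells of tumour 2, and at 22.5 CPM in Cdkn2a+ Epcam- and 9.73 CPM in Epcam+ cells of tumour 1; 3′ counting need not cover deleted exons, so this checks nothing. Brca1 had 0 UMIs in Cdkn2a+ Epcam- cells of both tumours, against 1.10 and 1.04 CPM in Epcam+ cells of tumours 2 and 1, under the floor of 3 counts over the Cdkn2a+ Epcam- cells of either tumour. No gene of MHC class I presentation (12 tested) or of hypoxia and glycolysis (19 tested) passed by either tool, with 1 and 2 at an unadjusted edgeR p under 0.05. Of 16 immediate early genes tested only the heat shock gene Hspa1a changed, and of 10 imprinted and fetal genes only Igf2, whose 32 UMIs all came from 1 barcode of tumour 1.

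Tumour 2, whose cells carried the named markers, showed further leading genes. The rule for these, the largest differences at 100 CPM or more, was chosen after values had been seen. Ptn, which encodes the growth factor pleiotrophin, was at 416 CPM in Cdkn2a+ Epcam- and 44.97 CPM in Epcam+ cells of tumour 2, and at 35.3 CPM in Cdkn2a+ Epcam- and 0.174 CPM in Epcam+ cells of tumour 1 (log2 change 4.05 ± 0.60 (SE), adjusted p = 0.000227). Epcam+ cells of the earlier libraries had more of it, 4279 CPM at 2 weeks and 1204 CPM at 5 months. Aqp1, a water channel, was at 203 CPM in Cdkn2a+ Epcam- and 18.2 CPM in Epcam+ cells of tumour 2, and at 25.7 CPM in Cdkn2a+ Epcam- and 0.869 CPM in Epcam+ cells of tumour 1 (adjusted p = 0.000101). Myl9, a myosin light chain of contractile cells, was at 144 CPM in Cdkn2a+ Epcam- and 17.7 CPM in Epcam+ cells of tumour 2, and at 93.02 CPM in Cdkn2a+ Epcam- and 2.09 CPM in Epcam+ cells of tumour 1 (adjusted p = 0.000101). Postn, which encodes periostin of the matrix, was at 101 CPM in Cdkn2a+ Epcam- and 6.90 CPM in Epcam+ cells of tumour 2, and at 1645 CPM in Cdkn2a+ Epcam- and 278 CPM in Epcam+ cells of tumour 1 (adjusted p = 0.000114). On the other side, Dcpp1, a secreted protein, was at 16.6 CPM in Cdkn2a+ Epcam- and 359.5 CPM in Epcam+ cells of tumour 2, and Pvt1, a noncoding RNA next to Myc, at 18.8 CPM in Cdkn2a+ Epcam- and 129 CPM in Epcam+ cells of tumour 2, and at 16.04 CPM in Cdkn2a+ Epcam- and 6.78 CPM in Epcam+ cells of tumour 1. Myc itself was at 67.8 CPM in Cdkn2a+ Epcam- and 150.1 CPM in Epcam+ cells of tumour 2.

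In tumour 1 the summed level of 4 chosen genes of chromosome 6 differed between the barcodes of the rule. Tes, Cav2, Met and Capza2 (chr6:17065149-17666972 on GRCm38 from the first to the last) summed to 7503 CPM in Epcam+ cells of tumour 1, 508 CPM in its leukocytes and 301 CPM in its fibroblast-gene barcodes, and to 544 CPM in Epcam+ cells of tumour 2. The 5 barcodes in clusters 4 and 6, which also held 341 of the 345 Epcam+ cells, had 4164 to 18015 CPM each. The 6 in cluster 14 had 449 to 3774 CPM, and the 7 in cluster 9 had 0 to 508 CPM. The barcodes of clusters 4 and 6 lay above all others, while the ranges of clusters 9 and 14 overlapped. These 4 genes were chosen after their values had been seen, and no test was made. They are not all genes of the region, and others need not share the pattern. Cav1, a relative of Cav2 left out of the sum, was at 2483 CPM in cluster 14 and 232 CPM in all other kept barcodes of tumour 1.

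The same barcodes differed in lineage genes. Summed over the 5 barcodes in clusters 4 and 6, Sox10 was at 149 CPM, Col9a1 at 488 CPM and Col1a1 at 13.5 CPM. The 6 in cluster 14 had 0 UMIs of Sox10 and Col9a1, 3969 CPM of Col1a1 and 674 CPM of Crabp1, a retinoic acid binding protein. The 7 in cluster 9, where 90 of the 91 fibroblast-gene barcodes lay, had 0 UMIs of Sox10 and 8395 CPM of Col1a1. The 27 barcodes of cluster 14 outside the rule all held Cdkn2a, at 1017 CPM, and had 4598 CPM of the chromosome 6 genes and 222 CPM of Prrx1. Their Col1a1 was at 424 CPM and their Mgp at 17.5 CPM, against 3969 and 3333 CPM in the 6 of the rule. The high collagen thus belongs to the 6 and not to the whole cluster. Of the 27, 22 missed the rule with 3 or more Krt8 plus Krt18 UMIs, 12 with 3 or more Tyrobp UMIs and 3 with Epcam. The 108 barcodes of cluster 9 outside the rule had 20.6 CPM of Cdkn2a and 276 CPM of the chromosome 6 genes. The remaining 5 were the pair in cluster 16, with 596 CPM of the endothelial cadherin Cdh5, the pair in cluster 15, led by the plasma cell genes Jchain and Mzb1, and 1 in cluster 12, led by the T and NK cell genes Nkg7 and Cd3g.

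**Figure D4:**
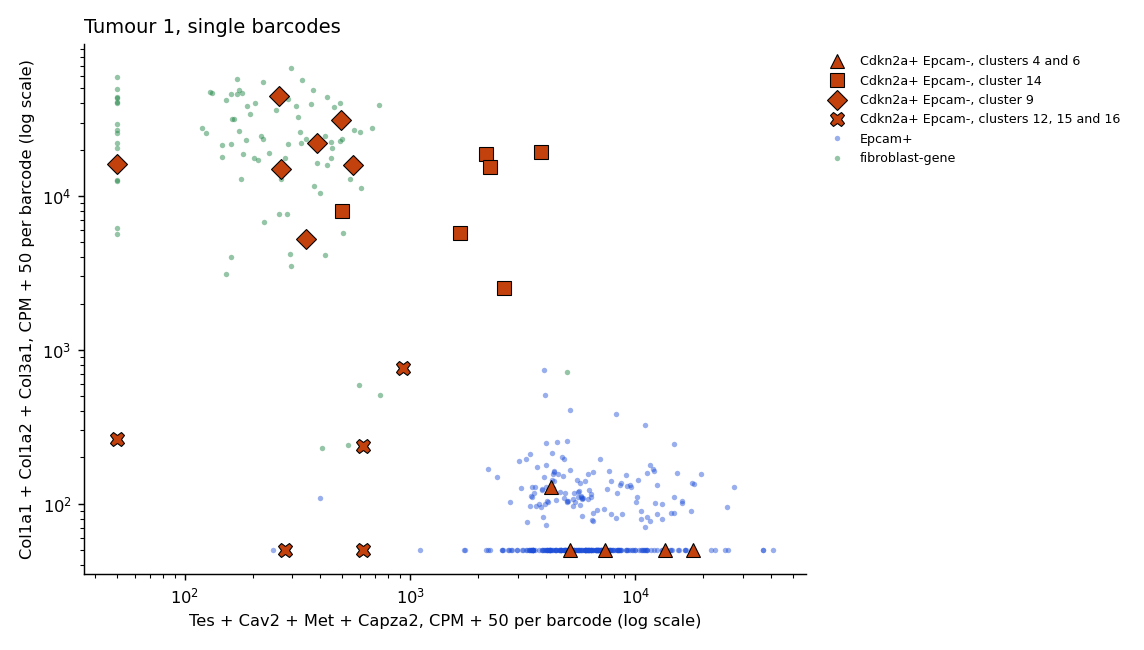
Single barcodes of tumour 1 by the summed level of Tes, Cav2, Met and Capza2 (x axis) and of Col1a1, Col1a2 and Col3a1 (y axis), both as CPM + 50 per barcode on log axes; large orange symbols are the 23 Cdkn2a+ Epcam- barcodes by cluster, small points the 345 Epcam+ (blue) and 91 fibroblast-gene (green) barcodes. The 5 barcodes of clusters 4 and 6 lie among the Epcam+ cells and the 7 of cluster 9 among the fibroblast-gene barcodes. In x, 5 of the 6 of cluster 14 lie right of most fibroblast-gene barcodes and within the lower Epcam+ range, with higher collagen than Epcam+ cells.

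The clusters of tumour 2 also differed. The 15 cells in cluster 3 had 1426 CPM of Cdkn2a, 2045 CPM of Vim and 138 CPM of Prrx1, against 734, 979.6 and 43.3 CPM in the 112 of cluster 1. Scrg1 and Sparcl1 were lower in cluster 3, at 29.5 and 118 CPM, than in cluster 1, at 196 and 720.1 CPM. Lalba had 0 UMIs in cluster 3 and was at 134 CPM in cluster 1. The 146 other barcodes of cluster 1, outside the rule, had 136 CPM of Sox10 and 317 CPM of Col9a1, where the 112 had 148 and 363 CPM. Clusters were made from the same genes, so these levels are a description.

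More genes differed between tumours in the Cdkn2a+ Epcam- sums than in the Epcam+ sums. In 1 sum against 1 sum, a difference of 2-fold or more was seen in 2228 of 6134 genes, of which 1203 stood higher (19.6%) and 1025 lower (16.7%) in tumour 2 than in tumour 1. For Epcam+ cells it was seen in 1169 of 5926, with 454 higher (7.66%) and 715 lower (12.1%); the sum over 23 barcodes is the shallowest, and the difference between these counts was not tested. The split between higher and lower turned with the scaling: by library size alone Epcam+ cells had 609 higher and 508 lower, and with cells thinned to 2000 UMIs the Cdkn2a+ Epcam- cells had 2279 higher and 1046 lower. Lower in tumour 2 were H19, Col3a1, Col1a2, Col1a1, Mfap5, Mmp13, Crabp1, Jchain, Mzb1 and Meg3. H19, an imprinted fetal RNA, had 0 UMIs in Cdkn2a+ Epcam- cells of tumour 2 and 2014 CPM in tumour 1, while Epcam+ cells had 4.69 CPM in tumour 2 and 299 CPM in tumour 1. Jchain, a chain of secreted antibodies, was at 12.8 CPM in tumour 2 and 3236 CPM in tumour 1, where 1 barcode held 63.6% of its UMIs. Among the genes higher in tumour 2 were Hp, Krt17, Tfap2c, Lrrc8d, Csf3, Fam213a, Agt, Pax3 and Trib3, each with 0 UMIs in tumour 1. Krt17, a keratin of basal and stressed epithelium, was at 102 CPM and Tfap2c, a transcription factor of luminal and neural crest cells, at 96.5 CPM in the Cdkn2a+ Epcam- cells of tumour 2. The Krt17 level came from few cells. Over 8 basal markers that include it, the median cell held 0 UMIs, 8 of 132 cells held 3 or more and the highest held 92.

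Median levels by chromosome placed the cells of tumour 2 with its Epcam+ cells on some chromosomes and apart on others. For genes with a mean of 20 CPM or more, the log2 ratio to leukocytes of the same tumour (5 CPM added) was centred on the median of all genes. On chromosome 12 the median over 142 genes was -0.58 in Cdkn2a+ Epcam-, -0.61 in Epcam+ and 0.11 in fibroblast-gene barcodes of tumour 2. On chromosome 16 it was -0.31 in Cdkn2a+ Epcam-, -0.49 in Epcam+ and 0.10 in fibroblast-gene barcodes. On chromosome 7 the median over 365 genes was -0.48 in Cdkn2a+ Epcam- cells and -0.01 in Epcam+ cells, and on chromosome 10 it was -0.36 in Cdkn2a+ Epcam- and -0.13 in Epcam+ cells. Fibroblast-gene barcodes were at -0.04 and 0.10 on these chromosomes. In tumour 1 chromosome 12 was at -0.34 in Cdkn2a+ Epcam- and -0.47 in Epcam+ barcodes, and chromosome 1 at 0.08 in Cdkn2a+ Epcam- and 0.45 in Epcam+ barcodes. This view was added after seeing the data and has no test, since genes of a chromosome are not replicates.

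**Figure D5:**
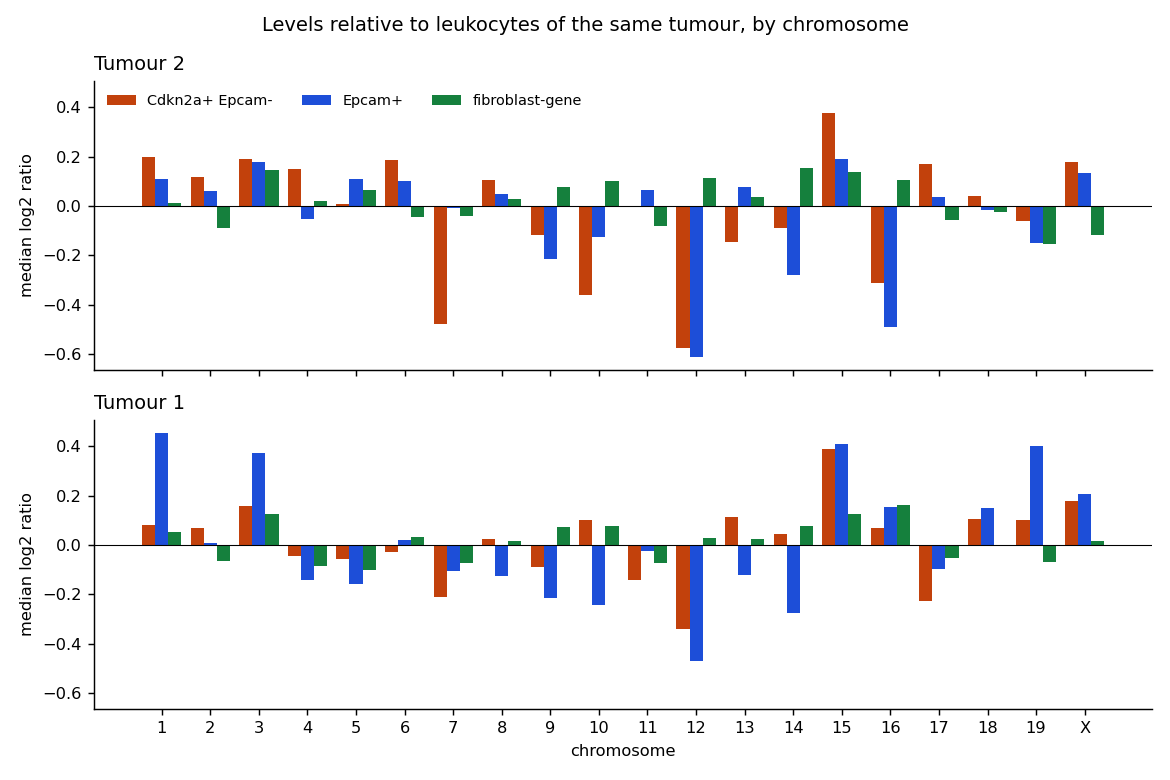
Median log2 ratio of gene levels to leukocytes of the same tumour, by chromosome and centred on all genes, in Cdkn2a+ Epcam- (orange), Epcam+ (blue) and fibroblast-gene (green) barcodes of tumour 2 (upper panel) and tumour 1 (lower panel). In tumour 2 chromosome 12 was lowest in Cdkn2a+ Epcam- and Epcam+ cells, at -0.58 and -0.61, while chromosome 7 was low in Cdkn2a+ Epcam- cells, at -0.48, and not in Epcam+ cells, at -0.01.

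The rule found few barcodes before tumours formed. It was met by 3 of 1301 kept barcodes at 2 weeks (0.231%, 0.0476 to 0.672) and by 4 of 4668 at 5 months (0.0857%, 0.0234 to 0.219). Both libraries were sorted on other gates than the tumours, which can set these shares, and no comparison was made.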

How the data were processed

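Droplet single-cell RNA libraries of 4 mouse mammary samples (Chromium Single Cell 3′ v2) were analysed from the deposited UMI counts per gene and barcode. Per the submitters' processing notes the authors used Cell Ranger on mm10 (GRCm38); its version is not given in the sources used here. Rule, gene lists and markers were chosen with earlier results of these data known. Barcodes with 500 or more genes and at most 10% mt- UMIs were kept: 1301 of 1453 at 2 weeks, 4668 of 4836 at 5 months, 2640 of 2712 in tumour 1 and 1765 of 1780 in tumour 2. Counts were summed per tumour and population (311770 and 5754968 UMIs in Cdkn2a+ Epcam- and Epcam+ barcodes of tumour 1, 1326786 and 3624453 in those of tumour 2), filtered with filterByExpr, scaled by TMM and tested with edgeR 4.0.16 in R 4.3.3, with the tumour as a block because both populations came from the same tumour. Cells are not replicates. With the tumour as a block, the p-values set the population difference against how far it varied between these 2 tumours, with information shared over genes. The labels do not assign the tumours to separate mice. Named genes were the 15 largest rises and falls among called genes of 1 direction in both tumours with 20 CPM or more. A few genes of the lists are not reported here. DESeq2 1.42.0, other filters, scalings and thresholds were the alternatives. Clusters were made per tumour with scanpy 1.11.5 (2000 variable genes, 30 components, 15 neighbours, Leiden resolution 1). Scrublet scores served only to leave out the highest-scoring barcodes as an alternative. On simulated counts of 9914 genes the test recovered 93 of 100 genes changed 16-fold and 32 of 100 changed 4-fold, and 3 of 128 calls were false. The changed genes were drawn from well-counted ones, with the same fold in both tumours and a single dispersion. These figures therefore need not hold for genes of few UMIs or for the mixed sum of tumour 1. Intervals are exact (Clopper-Pearson or Poisson) at 95%. Gene positions came from GENCODE M21, promoters from RefSeq on GRCm38.p6.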

Additional observations from a re-analysis of the deposited data

Results flagged for a closer look

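In the 5 months library, which enters no comparison, 4 barcodes met the rule (0.0857% of 4668 kept barcodes), above the limit of 3 counts. The library was sorted for YFP+ and CD45+ cells, and the 4 barcodes had a median of 3882.5 UMIs. No test was made.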

How the results depend on the processing

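The counts of called genes moved with most settings. Genes higher in Cdkn2a+ Epcam- cells numbered 133 by DESeq2, 82 with library size scaling, 69 with leukocyte sums in the fit, 59 with 1000 genes and 5% mt- UMIs as limits, 138 with 3 or more Cdkn2a UMIs, 85 against Epcam+ cells with 2 or more Cdkn2a UMIs, 101 with cells thinned to 2000 UMIs, 38 with genes of other cell types left out and 90 with only clusters 4 and 6 of tumour 1, a choice added after seeing the data. Genes lower numbered 67 by DESeq2, 62 with library size scaling, 259 without a filter on low counts, 67 with leukocyte sums, 51 with 1000 genes and 5% mt- UMIs, 83 against Epcam+ cells with 2 or more Cdkn2a UMIs, 85 thinned and 72 with genes of other cell types left out. With no replicate block, and so without the pairing of populations by tumour, edgeR called 0 higher and 0 lower. The cause of these moves was not tested. Direction reversed for Pecam1 (-0.31) and Col1a2 (-0.21) with clusters 4 and 6 only, for Pecam1 (-1.24 without tumour 1, 3.11 without tumour 2) and Col1a2 (-0.25 without tumour 1, 7.62 without tumour 2), where no test remains, and for Htra1 (-0.19) with genes of other cell types left out. The share of cells that met the rule was 0.492% in tumour 1 and 6.18% in tumour 2 with 3 or more Cdkn2a UMIs, and 9.80% in tumour 2 with 1 or more. With 1 residual degree of freedom and 23 barcodes in tumour 1, smaller changes were called less often on simulated counts (32 of 100 genes at 4-fold, 93 of 100 at 16-fold).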
